A study of Sus scrofa with 16 samples.

Results

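The genes of the interferon response and of antigen presentation made up 89 of the 3875 genes counted in myogenic satellite cells (SCs) of Duchenne muscular dystrophy (DMD) and wild-type (WT) piglets. They were picked by a rule on gene symbols, chosen with earlier results of these data known. The symbols begin with SLA- (the swine leukocyte antigens, the pig's major histocompatibility complex), IRF, IFI, IFN, ISG, MX, OAS, STAT, TLR, TAP or B2M. CD74, which the same rule names, is not analysed here. Expressed members were those with 10 or more counts in at least 4 of the 16 libraries. This held for 22 of the 89 members and for 2052 of all 3875 genes. The other 67 members fell short of it, and 35 of them had no count in any library. Just inside the limit was IFITM3, with 32, 36, 12 and 26 counts in 4 libraries and 6 or fewer in each of the rest. Just outside it, TLR2 had 14 and 16 counts in 2 libraries and 8 or fewer elsewhere.

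The SCs came from the *intercostalis* muscle of 4 WT and 4 DMD piglets aged 3 days. The study describes them as male. The DMD animals lack exon 52 of the *DMD* gene, which encodes dystrophin. Cells bearing CD31 or CD45 were removed, and cells bound by antibodies to ITGB1, NCAM1 or M-cadherin, used together, were retained as SCs. The SCs were cultured to passage 6. Each animal gave a proliferating culture in medium with 20% fetal bovine serum (PROL) and a culture kept for 10 days in medium with 5% horse serum, in which SCs fuse to myotubes (DIFF), so that 4 groups of 4 libraries were formed: WT PROL, WT DIFF, DMD PROL and DMD DIFF. The culture methods of the study give another duration for the differentiation.

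As background, interferons bind receptors whose kinases phosphorylate STAT proteins, and these, together with interferon regulatory factors (IRFs), switch on genes that block viruses. Sensors of foreign nucleic acid such as TLR3 and IFIH1 act upstream and induce the interferons. The same signals raise the class I pathway, in which peptides cut by the proteasome are carried by the TAP transporter to class I molecules with B2M. These signals can also raise the class II pathway. Skeletal muscle cells are not professional antigen-presenting cells, and class I is low in healthy muscle fibers.

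Libraries held 1110050 to 1781174 counts, and levels are given as CPM, counts scaled to the library size with TMM factors over the 16 libraries, so that a level can be compared between libraries for 1 gene but not between genes. Reads of *DMD* itself lay between 3.26 and 4.62 CPM in PROL and between 8.25 and 16.2 in DIFF for WT, and between 14.8 and 19.7 in PROL and between 21.6 and 33.6 in DIFF for DMD. Since 3′ reads do not cover exon 52, this does not check the deletion. DMD PROL replicate 4 stood apart: RN18S, the 18S ribosomal RNA, took 32% of its first technical column and 7.14% of its second. Of the marker genes in the table, those of fibroblasts (6 of 11 listed) summed to 8244 to 10003 CPM at PROL and 21283 to 24376 at DIFF for WT, with 4139 to 4574 at PROL and 9478 to 12703 at DIFF for DMD. Endothelial markers (5 of 14) summed to 146 to 163, 78.4 to 123, 16.0 to 34.1 and 33.8 to 50.4 CPM in the same order. Leukocyte markers (18 of 28) summed to 44.6 to 88.0, 59.9 to 75.7, 33.2 to 57.0 and 30.8 to 44.1 CPM, and the leukocyte genes FCER1G, CD3E, CD8A, C1QA and C1QB had no count anywhere, while PTPRC, which encodes CD45, is not analysed here. Myogenic markers (7 of 11) summed to 3365 to 5146, 4002 to 4512, 5596 to 6741 and 9325 to 11015 CPM. PAX7 is not analysed here.

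The members took 0.113% ± 0.00456 of all counts at PROL (mean ± SD, n = 4 animals) and 0.158% ± 0.00498 at DIFF in WT, and 0.0676% ± 0.00435 at PROL and 0.0661% ± 0.00433 at DIFF in DMD. IFI30 alone gave 34.9% of the member counts of WT SCs at PROL and 35.9% at DIFF, and ISG12(A) gave 7.75% and 21.3%. Without these 2 genes the shares of all counts were 0.0647% ± 0.00462, 0.0678% ± 0.00673, 0.0452% ± 0.00372 and 0.0425% ± 0.00369. These shares are a description and were not tested.

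**Figure D1:**
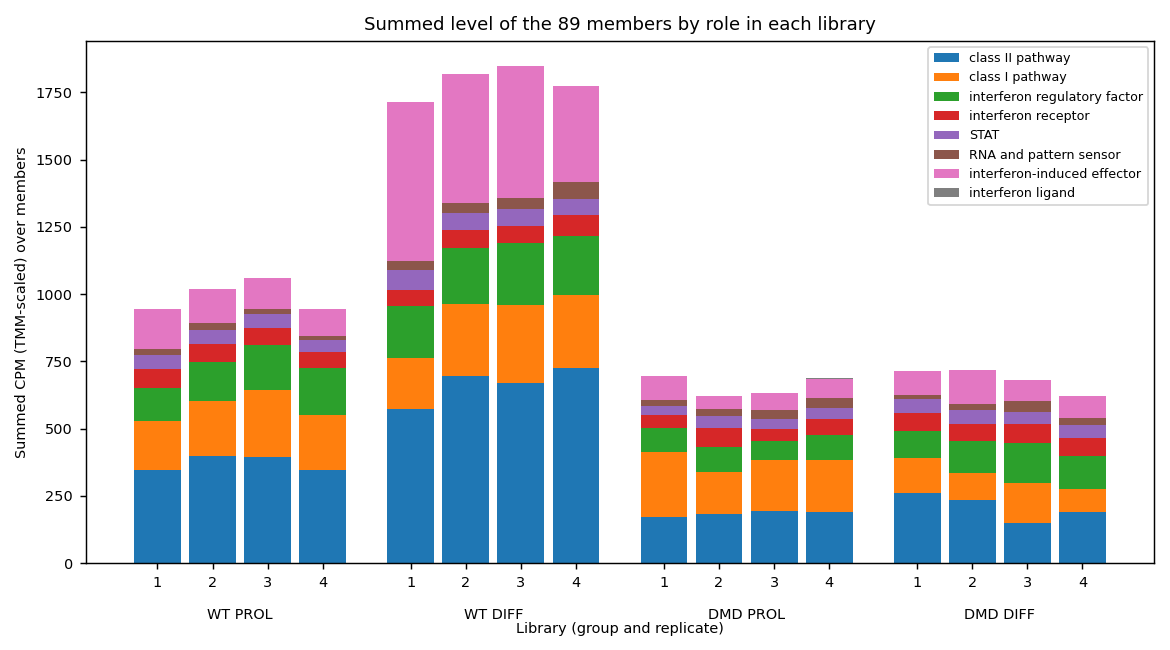
Summed level (TMM-scaled CPM, y axis) of the 89 members in each of the 16 libraries (x axis: group and replicate), with the stacked colors giving the roles of the members. The totals run from 1715 to 1849 in WT DIFF, from 944 to 1058 in WT PROL and from 622 to 717 in the 8 DMD libraries; the class II pathway bar is mostly IFI30 and the effector bar of WT DIFF mostly ISG12(A).

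In a bulk sample, fewer cells of a type and less RNA per cell cannot be told apart, and this holds for every comparison of levels given here. Fibroblast, endothelial and leukocyte marker sums were lower and the myogenic sum was higher in DMD than in WT at DIFF, without overlap of the libraries. At PROL the fibroblast, endothelial and myogenic sums were apart in the same directions without overlap, and the leukocyte sums overlapped. The leukocyte sum was mostly CD14, at 47.6 to 61.9 CPM in WT DIFF and 18.2 to 23 in DMD DIFF, and without it the sums overlapped (12.3 to 18.1 and 12.6 to 24.2 CPM). ITGB1 made up most of the myogenic sum, which was also higher in DMD DIFF without it (1918 to 2276 CPM beside 629 to 879). Of the 4 myogenic markers tested in DIFF, 3 were higher in DMD: ITGB1 (log2 FC 1.16), DES (2.92, adjusted p = 1.0e-08) and MYOG (3.03, adjusted p = 9.1e-06). VCAM1, at 396 to 595 CPM in WT DIFF, was 19.6-fold lower in DMD DIFF (log2 FC -4.30, adjusted p = 8.1e-05). In PROL, DES was higher in DMD (log2 FC 4.03), VCAM1 was lower (log2 FC -3.52) and ITGB1 overlapped. MYF5 had no count in any WT library and a count in every DMD library. COL1A2, the largest part of the fibroblast sum in DMD DIFF, overlapped between the genotypes, and the other fibroblast markers summed to 13859 to 15560 CPM in WT DIFF and 1877 to 2395 in DMD DIFF. Their part in the results on the members was not tested.

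A member was called when its adjusted p (edgeR's quasi-likelihood F test, Benjamini-Hochberg over all genes tested) was under 0.05 and its absolute log2 fold change (FC) over 0.6. The standard error (SE) given with a log2 FC is derived from the test statistic and restates the test. In PROL, 7 of the 17 members tested were called between DMD and WT, 1 higher (IFIH1) and 6 lower (STAT3, IRF3, IRF7, IFI30, SLA-DMB and ISG12(A)). Of all 1914 genes tested there, 18.2% were called, 8.36% higher and 9.87% lower. In DIFF, 12 of 21 members tested were called and all 12 were lower in DMD (STAT2, STAT3, IRF1, IRF7, MX1, OAS2, ISG12(A), SLA-3, SLA-6, SLA-8, SLA-DMB and IFI30), beside 33.6% of all 1916 genes, 16.1% higher and 17.5% lower. The median log2 FC of the members was -0.68 in PROL and -1.03 in DIFF, beside -0.0021 and -0.031 over all genes tested. DMD and WT libraries did not overlap for 1 higher and 8 lower members in PROL and for 10 lower members in DIFF. Of all genes, 15.8% were higher and 14.3% lower without overlap in PROL, and 22.1% and 23.2% in DIFF.

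From PROL to DIFF, 8 of 21 members tested were called in WT SCs, all higher (IRF1, IRF7, IFIH1, MX1, IFIT1, IFIT3, ISG12(A) and IFI30), beside 32.2% of all 1921 genes, 17.9% higher and 14.3% lower. In DMD SCs 4 of 19 were called, of which IRF1, IFIT1 and IFIT3 were higher and SLA-3 was lower, beside 28.4% of all 1886 genes, 16.0% higher and 12.4% lower. The median log2 FC of the members was 0.79 in WT and 0.23 in DMD, beside 0.031 and 0.015 over all genes. The state effect itself differed between the genotypes (interaction, 16 libraries) for 4 of 22 members, IFIH1, IFI30, SLA-3 and ISG12(A), all more negative in DMD, beside 23.5% of all 2030 genes, 10.6% more positive and 12.9% more negative. The comparisons share libraries with each other and are therefore not independent. Scaling by library size alone moved the median of all genes by -0.35 in the WT state comparison and by 0.28 in the interaction. The calls of members then read 5 higher and 1 lower (SLA-6) in the first and 1 more positive (IRF3) and 3 more negative in the second.

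Interferon ligands, the secreted signals, were 34 of the 89 members, and 29 of them had no count in any library. The 5 others had 2 counts each, in 1 library each: IFN-DELTA-8, IFNB1 and IFN-KAPPA in WT DIFF, IFNG in DMD PROL and IFN-OMEGA-2 in DMD DIFF. That is 0 and 6 counts at PROL and DIFF for WT, and 2 and 2 for DMD. If each count is 1 molecule, a group without a count allows up to 3 counts, or 0.557 CPM over the WT PROL libraries. All deposited counts are even, and this limit is too low if 1 molecule gave 2 counts. No interferon ligand had more than 2 counts in a library at this depth. None of the 34 could be tested.

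IFNGR1, the ligand-binding chain of the interferon gamma receptor, was the receptor among the members. Its level was 64.5 ± 5.54 CPM in PROL and 67.3 ± 9.58 in DIFF for WT, and 56.1 ± 11.0 in PROL and 66.2 ± 3.42 in DIFF for DMD. The log2 FC of DMD against WT was -0.21 with an SE of 0.18 in PROL and -0.03 with an SE of 0.16 in DIFF, and it was called in no comparison.

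Among the STATs, which carry the signal from the receptor to the nucleus, STAT3, the mediator of IL-6 family cytokines, separated the genotypes in both states. Its level was 10.2, 12.4, 17.4 and 16.9 CPM at PROL and 20.6, 14.7, 15.5 and 12.3 at DIFF in the WT animals, against 2.46, 5.06, 5.82 and 5.25 at PROL and 9.80, 8.16, 5.76 and 4.27 at DIFF in the DMD animals (replicates 1 to 4 in each list). Every WT library exceeded every DMD library of the same state. STAT3 was 3.05-fold lower in DMD PROL (log2 FC -1.61, SE 0.41, adjusted p = 0.0081) and 2.24-fold lower in DMD DIFF (log2 FC -1.16, SE 0.39, adjusted p = 0.021). Leaving out WT DIFF replicate 1, DMD DIFF replicate 3 or DMD DIFF replicate 4 ended the DIFF call, with adjusted p = 0.054 to 0.076.

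STAT2, a subunit of the transcription factor of type I interferon signaling, gave 4.37, 11.2, 7.61 and 4.62 CPM at PROL and 11.0, 13.3, 10.4 and 15.0 at DIFF in the WT animals, against 0, 5.06, 1.16 and 3.94 at PROL and 7.00, 5.83, 5.76 and 5.69 at DIFF in the DMD animals. The DIFF groups did not overlap, and STAT2 was 2.04-fold lower in DMD (log2 FC -1.03, SE 0.38, adjusted p = 0.035). This call was lost without any 1 of the 8 libraries (adjusted p = 0.052 to 0.12) and in 13 of the 16 alternatives that tested the gene. STAT5B, called in no comparison, ranged from 2.33 to 13.9 CPM over the 16 libraries. STAT6 had no count, and STAT4 and STAT5A had 4 and 16 counts in all.

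IRF7, the regulator that amplifies type I interferon production, read 26.2, 24.8, 28.2 and 32.3 CPM at PROL and 63.3, 60.4, 45.3 and 59.9 at DIFF in the WT animals, against 23.4, 11.4, 5.82 and 11.8 at PROL and 12.6, 15.2, 20.2 and 14.2 at DIFF in the DMD animals. All WT DIFF libraries lay above the 12 others, and the WT and DMD libraries did not overlap in either state. The gene was 3.69-fold lower in DMD DIFF (log2 FC -1.88, SE 0.23, adjusted p = 5.1e-06) and 2.14-fold lower in DMD PROL (log2 FC -1.10, SE 0.35, adjusted p = 0.030). From PROL to DIFF it rose 2.03-fold in WT (log2 FC 1.02, SE 0.20, adjusted p = 0.00075), while in DMD the log2 FC was 0.24 with an SE of 0.39. The difference between these 2 state effects did not pass (log2 -0.79, SE 0.42, adjusted p = 0.18), except without DMD PROL replicate 3 (log2 -1.04, adjusted p = 0.044). The PROL call was lost without WT PROL replicate 3 or 4 or DMD PROL replicate 2, 3 or 4 (adjusted p = 0.054 to 0.074).

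IRF1, a factor induced by interferon gamma that activates class I genes, had 11.6, 18.6, 16.3 and 35.4 CPM at PROL and 49.5, 54.5, 86.7 and 58.5 at DIFF in the WT animals, against 11.1, 10.1, 8.15 and 10.5 at PROL and 15.4, 30.3, 33.1 and 19.9 at DIFF in the DMD animals. Its level was higher in every DIFF library than in every PROL library of the same genotype. The rise was 3.03-fold in WT (log2 FC 1.60, SE 0.31, adjusted p = 0.00055) and 2.46-fold in DMD (log2 FC 1.30, SE 0.32, adjusted p = 0.0040), and the interaction was -0.31 with an SE of 0.46. In DIFF the gene was 2.53-fold lower in DMD (log2 FC -1.34, SE 0.26, adjusted p = 0.00047). In PROL the groups did not overlap either, but the adjusted p was 0.0501 (log2 FC -1.04, SE 0.37). Without WT PROL replicate 1 it was 0.025, and DESeq2 gave 0.043. The PROL difference was called in 6 of the 17 alternatives that tested it, and over these 17 the adjusted p ranged from 0.024 to 0.21.

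IRF3, which relays the signal of nucleic acid sensors, stood at 84.4, 98.0, 119.5 and 106 CPM at PROL and 79.8, 91.3, 94.5 and 99.4 at DIFF in the WT animals, against 51.7, 69.5, 55.9 and 72.2 at PROL and 70.0, 71.1, 93.6 and 88.2 at DIFF in the DMD animals. The genotypes were apart in PROL and overlapped in DIFF. It was 1.65-fold lower in DMD PROL (log2 FC -0.72, SE 0.17, adjusted p = 0.0043), and the DIFF log2 FC was -0.19 with an SE of 0.15. The difference between the 2 did not pass (log2 0.54, SE 0.22, adjusted p = 0.074); with library size alone it did (log2 0.82, adjusted p = 0.0062), and also without WT PROL replicate 1 (log2 0.62, adjusted p = 0.046). IRF4 had no count and IRF8 had 16 counts over all libraries.

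IFIH1 (MDA5), a cytosolic sensor of long double-stranded RNA, went against the other called members in PROL. It had 1.46, 3.72, 6.52 and 4.62 CPM at PROL and 11.0, 8.84, 5.18 and 25.9 at DIFF in the WT animals, against 12.3, 16.4, 16.3 and 23.6 at PROL and 1.40, 5.83, 15.8 and 9.96 at DIFF in the DMD animals. Every DMD PROL library was above every WT PROL library, and the DIFF groups overlapped. In PROL the gene was 4.02-fold higher in DMD (log2 FC 2.01, SE 0.43, adjusted p = 0.0026), and this call was kept in all 16 alternatives that tested it. From PROL to DIFF it rose 2.97-fold in WT (log2 FC 1.57, SE 0.55, adjusted p = 0.029), whereas the DMD log2 FC was -1.07 (SE 0.48, adjusted p = 0.082). The state effects differed by -2.65 on the log2 scale (SE 0.79, adjusted p = 0.013). WT DIFF replicate 4 carried part of this: without it the WT rise was 0.96 (adjusted p = 0.19) and the difference -2.04 (adjusted p = 0.059). The WT rise was also lost without WT PROL replicate 1, 2 or 4 (adjusted p from 0.054 upward) and with library size alone (adjusted p = 0.076), and in DMD the gene fell with the animal as a block (log2 FC -1.19, adjusted p = 0.034) and without DMD DIFF replicate 3 (log2 FC -1.57, adjusted p = 0.020).

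TLR3, the endosomal receptor for double-stranded RNA, was called nowhere, with 11.0 ± 3.05, 17.5 ± 1.42, 12.0 ± 2.7 and 13.8 ± 3.50 CPM in the groups WT PROL and DIFF and DMD PROL and DIFF, respectively. The 9 other Toll-like receptors had between 2 and 68 counts over the 16 libraries. TLR2 was highest with 16, 38, 2 and 12 counts in these groups.

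The plot of each called member shows these levels in every library.

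**Figure D2:**
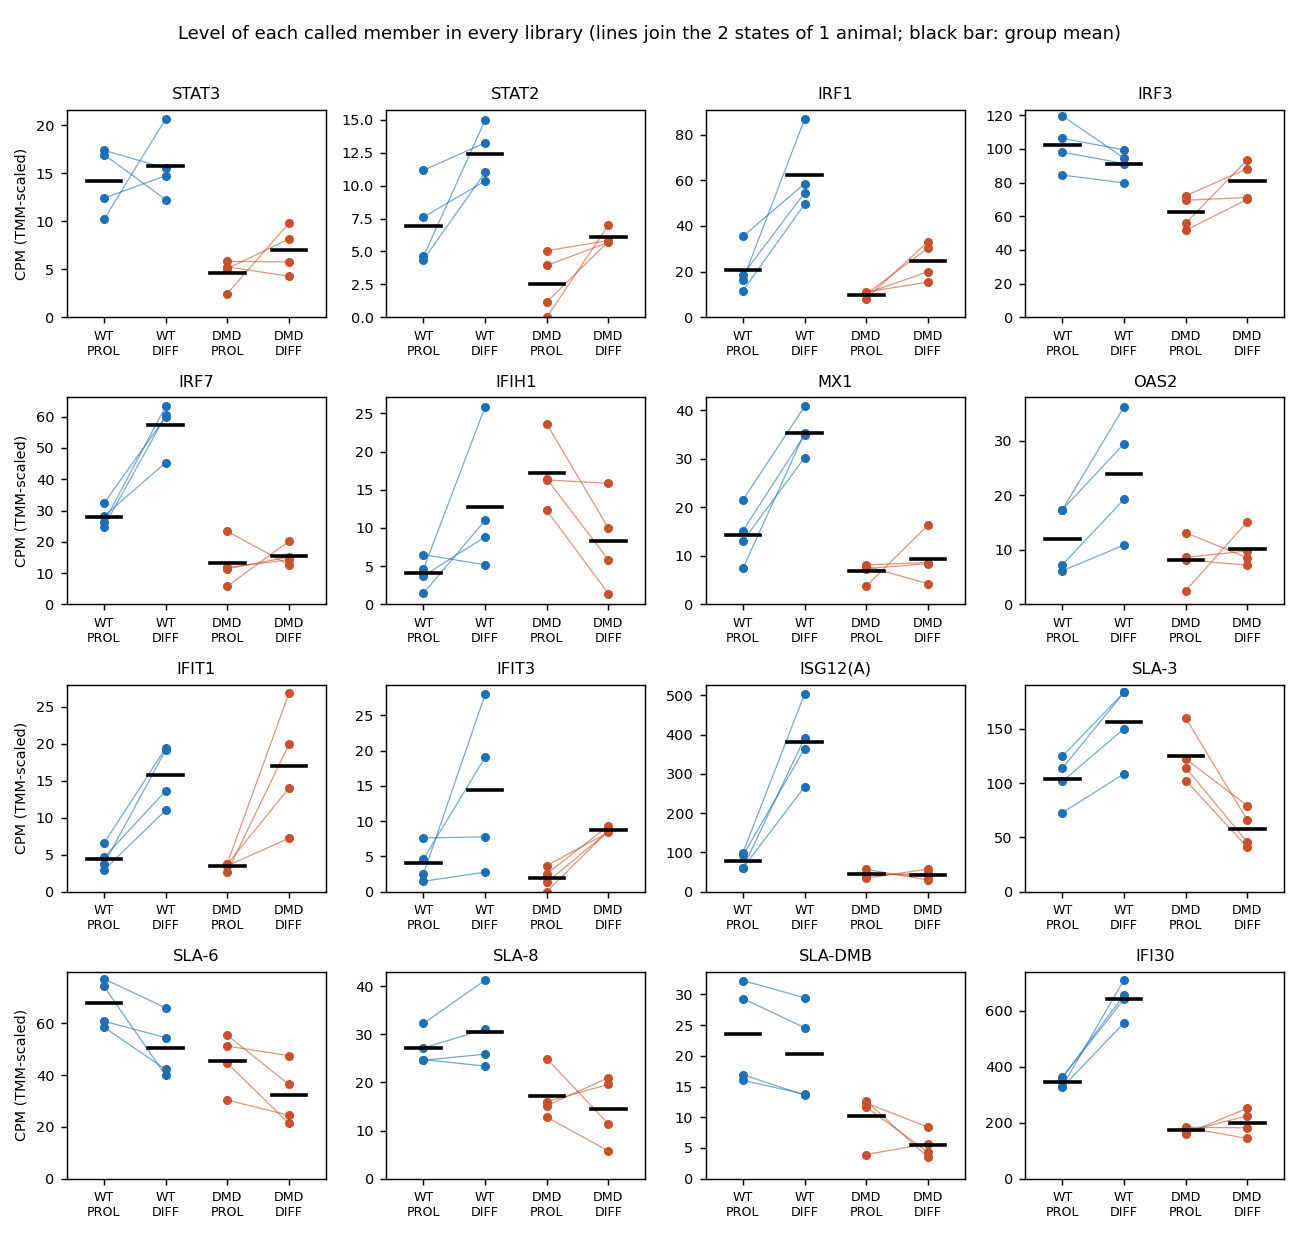
Level (TMM-scaled CPM, y axis, linear from 0) of the 16 members called in at least 1 comparison, in the 4 groups (x axis); each point is 1 library, a thin line joins the PROL and DIFF libraries of 1 animal, and the black bar is the mean of 4 animals. ISG12(A), IRF7, MX1 and IFI30 are highest in the 4 WT DIFF libraries, IFIH1 is high in DMD PROL, and SLA-3 falls from PROL to DIFF in each of the 4 DMD animals.

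ISG12(A), a small interferon-inducible protein of the IFI27 family, showed the largest genotype difference among the members tested in DIFF. Its level was 99.0, 91.8, 60.8 and 60.0 CPM at PROL and 504, 364, 391 and 267 at DIFF in the WT animals, against 56.6, 34.1, 41.9 and 45.9 at PROL and 29.4, 57.1, 46.1 and 39.8 at DIFF in the DMD animals. The lowest WT DIFF library was above all 12 others, and no DMD library reached the lowest WT library. ISG12(A) was 8.80-fold lower in DMD DIFF (log2 FC -3.14, SE 0.23, adjusted p = 3.7e-07) and 1.75-fold lower in DMD PROL (log2 FC -0.81, SE 0.22, adjusted p = 0.012). It rose 4.83-fold from PROL to DIFF in WT (log2 FC 2.27, SE 0.23, adjusted p = 9.8e-06), while in DMD the log2 FC was -0.05 (SE 0.23, adjusted p = 0.88). The state effects differed by -2.33 on the log2 scale (SE 0.32, adjusted p = 1.7e-05). Of these calls, the PROL call was lost with the first technical column alone (adjusted p = 0.085) and the others were kept in every alternative that tested them.

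MX1, a GTPase that blocks replication of RNA viruses, gave 13.1, 7.45, 15.2 and 21.5 CPM at PROL and 30.3, 35.3, 34.9 and 40.8 at DIFF in the WT animals, against 7.38, 3.79, 8.15 and 7.87 at PROL and 8.40, 16.3, 8.64 and 4.27 at DIFF in the DMD animals. WT DIFF was above all other libraries. In DIFF, MX1 was 3.68-fold lower in DMD (log2 FC -1.88, SE 0.35, adjusted p = 0.00026), and from PROL to DIFF it rose 2.45-fold in WT (log2 FC 1.29, SE 0.30, adjusted p = 0.0024). The PROL difference was not called (log2 FC -1.06, SE 0.42, adjusted p = 0.070), but was without WT PROL replicate 2 (log2 FC -1.28, adjusted p = 0.032). The interaction was -0.82 with an SE of 0.54 (adjusted p = 0.28).

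OAS2, an enzyme that makes the oligoadenylates which activate RNase L, had 7.28, 17.4, 17.4 and 6.16 CPM at PROL and 19.3, 29.5, 36.2 and 10.9 at DIFF in the WT animals, against 8.61, 2.53, 8.15 and 13.1 at PROL and 9.80, 15.2, 7.20 and 8.54 at DIFF in the DMD animals. All groups overlapped. It was 2.33-fold lower in DMD DIFF (log2 FC -1.22, SE 0.40, adjusted p = 0.018), a call lost without WT DIFF replicate 2 or 3 (adjusted p = 0.054 and 0.085). In WT the state effect was 0.94 (SE 0.43, adjusted p = 0.084); it was called with the animal as a block (log2 FC 0.98, adjusted p = 0.017) and without WT DIFF replicate 4 (log2 FC 1.17, adjusted p = 0.028).

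IFIT1, which binds viral RNA ends, rose from PROL to DIFF in both genotypes. Its levels were 2.91, 3.72, 6.52 and 4.62 CPM at PROL and 11.0, 19.1, 19.4 and 13.6 at DIFF in the WT animals, against 3.69, 3.79, 3.49 and 2.62 at PROL and 14.0, 26.8, 7.20 and 19.9 at DIFF in the DMD animals. DIFF exceeded PROL in all 8 animals. The rise was 3.42-fold in WT (log2 FC 1.77, SE 0.41, adjusted p = 0.0022) and 4.90-fold in DMD (log2 FC 2.29, SE 0.47, adjusted p = 0.00078). Neither the genotype difference in DIFF (log2 FC 0.11, SE 0.39) nor the interaction (log2 0.51, SE 0.63) was called.

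IFIT3, its partner, had 1.46, 2.48, 7.61 and 4.62 CPM at PROL and 2.75, 28, 7.76 and 19.1 at DIFF in the WT animals, against 3.69, 2.53, 0 and 1.31 at PROL and 8.40, 9.33, 8.64 and 8.54 at DIFF in the DMD animals. The 4 DMD DIFF libraries lay close together above all DMD PROL libraries, whereas the WT groups overlapped. In DMD it rose 4.50-fold (log2 FC 2.17, SE 0.61, adjusted p = 0.0089). The WT rise of 3.36-fold (log2 FC 1.75, SE 0.66, adjusted p = 0.042) was lost without WT PROL replicate 1, 2 or 4 or WT DIFF replicate 2 or 4 (adjusted p = 0.078 to 0.17) and with library size alone (adjusted p = 0.088). DMD and WT did not differ by call in DIFF (log2 FC -0.71, SE 0.53, adjusted p = 0.29).

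IFITM3, a membrane protein that blocks virus entry, was uneven between animals. It had 23.3, 0, 3.26 and 1.54 CPM at PROL and 24.8, 2.95, 0 and 1.36 at DIFF in the WT animals, against 7.38, 0, 1.16 and 1.31 at PROL and 18.2, 0, 0 and 0 at DIFF in the DMD animals, so that nearly all counts came from replicate 1 of each genotype. The gene was tested in the interaction alone and was not called (adjusted p = 0.85). MX2, OAS1, OASL, IFI44 and IFITM2 had 4 to 8 counts each over the 16 libraries. Copies of the IFITM family are near-identical, so that its counts are uncertain.

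Among the class I members, SLA-3, a classical class I heavy chain, changed between states in DMD. It had 72.8, 102, 125 and 114 CPM at PROL and 109, 150.2, 184 and 184 at DIFF in the WT animals, against 160.0, 102, 122 and 114 at PROL and 65.8, 40.8, 79.2 and 45.5 at DIFF in the DMD animals. DMD DIFF lay below DMD PROL and below WT DIFF without overlap, and in PROL the genotypes overlapped. In DIFF the gene was 2.74-fold lower in DMD (log2 FC -1.45, SE 0.22, adjusted p = 5.3e-05), while in PROL the log2 FC was 0.26 with an SE of 0.18. It fell 2.18-fold from PROL to DIFF in DMD (log2 FC -1.12, SE 0.21, adjusted p = 0.00049). The WT effect was 0.58 (SE 0.19, adjusted p = 0.021), under the FC limit, and passed it without WT PROL replicate 3, WT PROL replicate 4 or WT DIFF replicate 1 (log2 FC 0.62 to 0.71). The state effects differed by -1.71 (SE 0.31, adjusted p = 0.00021), and this call was kept in all 25 alternatives run for the interaction (log2 -1.91 to -1.43, adjusted p up to 0.011).

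SLA-6 and SLA-8 are non-classical class I genes. SLA-6 had 74.2, 60.8, 77.1 and 58.5 CPM at PROL and 39.9, 54.5, 66.0 and 42.2 at DIFF in the WT animals, against 55.4, 30.3, 51.2 and 44.6 at PROL and 36.4, 24.5, 47.5 and 21.3 at DIFF in the DMD animals. Its DIFF groups overlapped, and its call there (log2 FC -0.66, SE 0.26, adjusted p = 0.049) was lost in 11 of 18 alternatives, including those without WT DIFF replicate 2, 3 or 4 or DMD DIFF replicate 1, 2 or 4 (adjusted p = 0.053 to 0.16). In PROL, SLA-6 missed the FC limit (log2 FC -0.58, SE 0.20, adjusted p = 0.043) but not without WT PROL replicate 4 or DMD PROL replicate 1 (log2 FC -0.65 to -0.70) or with the replicate block (log2 FC -0.60). Its state effect in DMD was called without DMD DIFF replicate 3 (log2 FC -0.73, adjusted p = 0.042).

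SLA-8 gave 24.7, 32.3, 27.2 and 24.6 CPM at PROL and 23.4, 41.2, 31.1 and 25.9 at DIFF in the WT animals, against 16.0, 15.2, 12.8 and 24.9 at PROL and 19.6, 21.0, 5.76 and 11.4 at DIFF in the DMD animals. No DMD DIFF library reached the lowest WT DIFF library. It was 2.08-fold lower in DMD DIFF (log2 FC -1.06, SE 0.36, adjusted p = 0.023), lost without WT DIFF replicate 2, DMD DIFF replicate 3 or DMD DIFF replicate 4 (adjusted p = 0.058 to 0.081). In PROL the log2 FC was -0.68 (SE 0.27, adjusted p = 0.080), and without DMD PROL replicate 4 it was -0.90 (adjusted p = 0.033).

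TAP2, a chain of the peptide transporter, had 5.75 ± 4.43, 10.8 ± 3.42, 4.75 ± 2.75 and 10.4 ± 4.80 CPM in the groups WT PROL and DIFF and DMD PROL and DIFF, respectively. It was called in no comparison, although it was in the WT states without WT PROL replicate 3 (log2 FC 1.48, adjusted p = 0.042). TAP1, the other chain, and SLA-1 had no count. B2M, the light chain of every class I molecule, had 10, 12, 8 and 0 counts in the 4 groups. RefSeq (Sscrofa11.1, another build than the one used for these counts) lists 2 genes of that name. SLA-2, SLA-5 and SLA-7 had 4, 6 and 60 counts over all libraries. Class I genes are alike in sequence, so that counts could be split or lost between them and the values of each are uncertain.

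IFI30 (GILT), the lysosomal thiol reductase that opens disulfide bonds of antigens for class II presentation, gave the most counts of all members. Its level was 327, 364, 362 and 331 CPM at PROL and 557, 657, 643 and 712 at DIFF in the WT animals, against 161, 168, 183 and 184 at PROL and 252, 225, 144 and 182 at DIFF in the DMD animals. The 3 levels of WT DIFF, WT PROL and DMD were separated in every library, and the DMD states overlapped. IFI30 was 2.00-fold lower in DMD PROL (log2 FC -1.0, SE 0.10, adjusted p = 1.6e-06) and 3.21-fold lower in DMD DIFF (log2 FC -1.68, SE 0.15, adjusted p = 3.1e-07). It rose 1.83-fold in WT (log2 FC 0.87, SE 0.10, adjusted p = 2.45e-06), and with library size alone this was 0.53, under the limit. In DMD the log2 FC was 0.20 with an SE of 0.15. The state effects differed by -0.68 (SE 0.18, adjusted p = 0.0051). Without DMD DIFF replicate 3 the difference was -0.55 (adjusted p = 0.0095), under the FC limit, and with library size alone it was -0.40 (adjusted p = 0.10).

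SLA-DMB, the beta chain of the chaperone that exchanges class II peptides, had 16.0, 32.3, 29.3 and 16.9 CPM at PROL and 13.8, 29.5, 24.6 and 13.6 at DIFF in the WT animals, against 12.3, 12.6, 11.6 and 3.94 at PROL and 8.40, 3.50, 4.32 and 5.69 at DIFF in the DMD animals. Each DMD library lay below each WT library. The gene was 3.72-fold lower in DMD DIFF (log2 FC -1.90, SE 0.42, adjusted p = 0.0013) and 2.35-fold lower in DMD PROL (log2 FC -1.23, SE 0.38, adjusted p = 0.026). DMD PROL replicate 4, the library with the high RN18S column, was the lowest in PROL, and without it the PROL call was lost on its adjusted p, as it was without WT PROL replicate 2 or 3 (log2 FC -0.97 to -1.12, adjusted p = 0.056 to 0.076). The antigen-binding class II chains had few counts: SLA-DRB1 had none, SLA-DRA 2, SLA-DQA1 12 and SLA-DQB1 40 over the 16 libraries. Of the other chaperone chains, SLA-DMA had no count, SLA-DOA 2 and SLA-DOB 4.

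**Figure D3:**
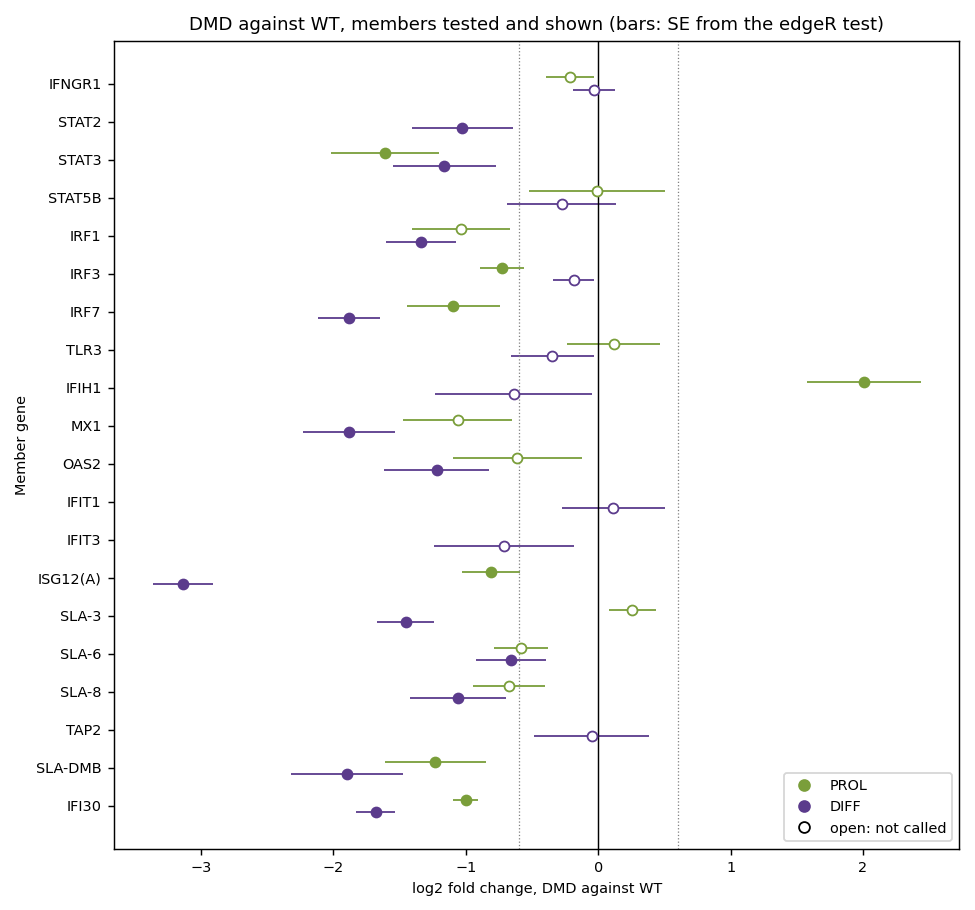
Log2 FC of DMD against WT (x axis) for members tested (y axis, ordered by role), in PROL (green) and DIFF (purple); bars are the SE from the edgeR test, filled points are called, open points are not, and dotted lines mark the limit of 0.6. IFIH1 in PROL, at 2.01, is the filled point on the right, and ISG12(A) in DIFF, at -3.14, is farthest to the left.

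**Figure D4:**
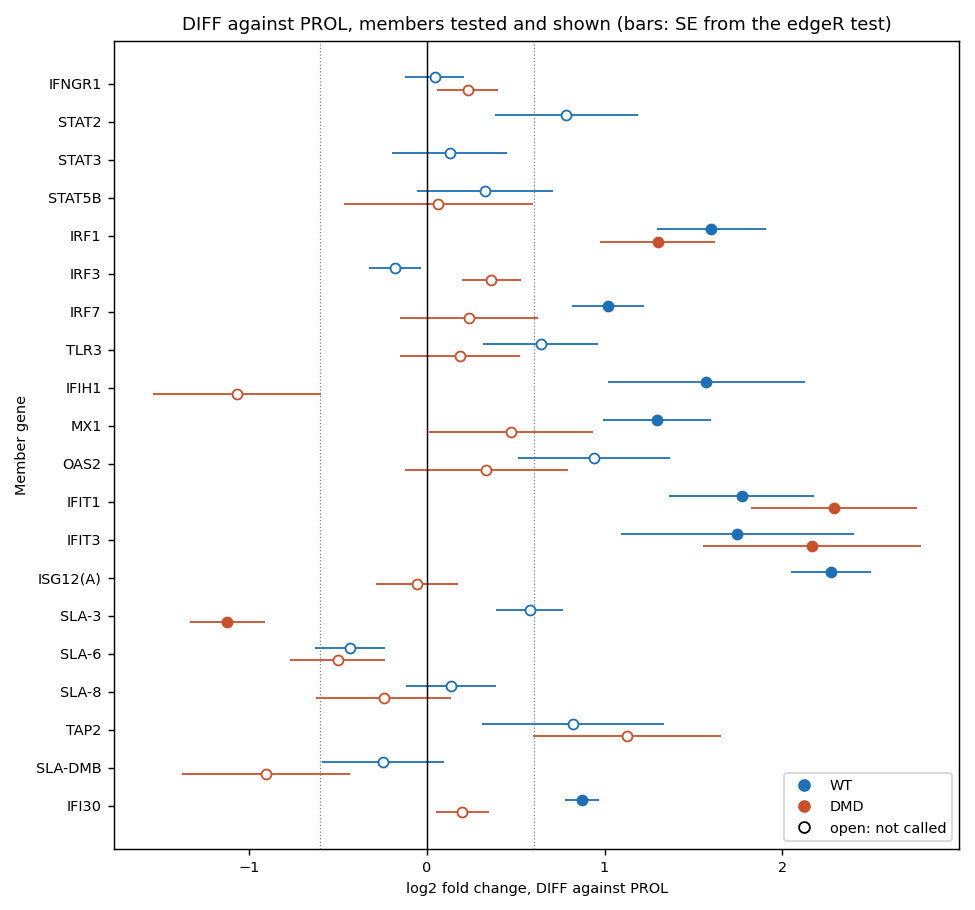
Log2 FC of DIFF against PROL (x axis) for members tested (y axis, ordered by role), in WT (blue) and DMD (orange), with the SE as bars, filled points for called members and dotted lines at 0.6. IRF1, IFIT1 and IFIT3 are filled on the right in both genotypes, ISG12(A) is at 2.27 in WT and at -0.05 in DMD, and SLA-3 in DMD, at -1.12, is the filled point on the left.

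Other genes of the pathway came from lists of 126 names outside the rule, of which 58 were in the table and 68 are not analysed here. In PROL 27 of them were tested, of which 1 was higher and 5 were lower in DMD, beside the 18.2% called of all genes. In DIFF, 1 of 28 was higher and 11 were lower, beside 33.6%. From PROL to DIFF, 10 of 29 were higher and 1 lower in WT, beside 32.2%, and 8 of 25 were higher and 4 lower in DMD, beside 28.4%. Their median log2 FC was -0.30 in PROL, -0.42 in DIFF, 0.11 in the WT states and 0.18 in the DMD states, beside -0.0021, -0.031, 0.031 and 0.015 over all genes. The state effect differed for 8 of 30, of which 7 were more negative in DMD, beside 23.5% of all genes.

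Of the induced effectors outside the rule, TNFSF10 (TRAIL), a death ligand, had 0.364 ± 0.728 CPM in PROL and 48.8 ± 7.34 in DIFF for WT, and 1.23 ± 0.953 in PROL and 3.01 ± 1.22 in DIFF for DMD. WT DIFF stood alone, 40.1 CPM or more in every library against 4.27 or fewer in the 12 others. In DIFF the log2 FC of DMD against WT was -3.98 (SE 0.34, adjusted p = 7.0e-08). GBP1, a guanylate-binding GTPase, rose in both genotypes (log2 FC 1.13 in WT and 1.15 in DMD). USP18, which removes ISG15 and dampens the type I receptor, was the gene called higher in DMD DIFF (log2 FC 1.26, adjusted p = 0.022). Its libraries overlapped between the genotypes (9.33 to 33.1 CPM in DMD DIFF and 6.47 to 9.63 in WT DIFF). It was named after its value was seen, and its call was not put through the alternatives. CCL5, a chemokine, was highest in WT PROL with 39.9 ± 16.1 CPM, beside 6.79 ± 3.43 in WT DIFF, and had 4.15 ± 3.52 at PROL and 7.10 ± 5.20 at DIFF for DMD. Its log2 FC in PROL was -3.28 (SE 0.48, adjusted p = 0.00013), and its state effect, which fell in WT (log2 FC -2.55), differed between the genotypes by 3.32 (SE 0.80, adjusted p = 0.0029). That difference was not called with the first technical column alone (log2 2.7, adjusted p = 0.072).

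In signaling, the kinase JAK1 had 310.0 ± 8.30 CPM in PROL and 528 ± 39.7 in DIFF for WT, and 194 ± 36.1 in PROL and 392 ± 41.9 in DIFF for DMD. It was lower in DMD PROL (log2 FC -0.69, SE 0.12, adjusted p = 0.00061; lost without DMD PROL replicate 1, where the log2 FC was -0.595) and rose in both genotypes (log2 FC 0.75 in WT and 1.01 in DMD). With library size alone the WT rise was 0.40, under the limit. In DIFF, JAK1 was also lower in DMD without overlap, but under the FC limit (log2 FC -0.44, adjusted p = 0.0015). IL6ST (gp130), the shared receptor chain upstream of STAT3, went from 259 ± 68.3 to 758 ± 65.7 CPM in WT and from 119.7 ± 24.3 to 205 ± 39.1 in DMD. Its log2 FC of DMD against WT was -1.13 (SE 0.19, adjusted p = 0.00050) in PROL and -1.89 (SE 0.13, adjusted p = 5.7e-09) in DIFF. NFKBIA, the inhibitor of NF-κB, was lower in DMD DIFF (log2 FC -1.14, adjusted p = 0.00043) and rose in WT (log2 FC 1.22, adjusted p = 0.00078). Of the sensor partners, CD14 was lower in DMD in both states (log2 FC -0.71 in PROL and -1.40 in DIFF). Its PROL call was lost without WT PROL replicate 2 or 3 or DMD PROL replicate 1 or 4 (log2 FC -0.57 to -0.68), and CD14 is also among the leukocyte markers. TRAF6, an adaptor, was the gene called higher in DMD PROL (log2 FC 1.42, adjusted p = 0.044), lost without WT PROL replicate 1, 2 or 3 or DMD PROL replicate 1 or 2 (adjusted p = 0.086 to 0.19). LY96, another sensor partner, fell from PROL to DIFF in DMD (log2 FC -0.94, adjusted p = 5.9e-05), with a log2 FC of -0.0058 in WT. The state effects differed by -0.94 (adjusted p = 0.00037). LY96 was lower in DMD DIFF (log2 FC -0.64, adjusted p = 0.0021). In PROL it was higher in DMD without overlap but not called (log2 FC 0.30, adjusted p = 0.077).

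In the class I peptide supply, PSME1, a subunit of the interferon-inducible proteasome activator, had 534 ± 53.5 CPM in PROL and 1182 ± 170.5 in DIFF for WT, and 537 ± 33.9 in PROL and 476 ± 41.3 in DIFF for DMD. PROL levels of the genotypes overlapped, and WT DIFF lay above the 12 other libraries. The DIFF log2 FC was -1.32 (SE 0.11, adjusted p = 6.1e-08), and the state effects differed by -1.32 (SE 0.14, adjusted p = 2.8e-07). PSMB10, an immunoproteasome subunit, was lower in DMD in PROL (log2 FC -0.77, adjusted p = 0.0047) and DIFF (log2 FC -1.42, adjusted p = 1.2e-06). FCGRT, the heavy chain of the neonatal Fc receptor, was lower in DMD DIFF (log2 FC -0.81, adjusted p = 2.0e-06). In PROL it was also lower in DMD without overlap, but under the FC limit (log2 FC -0.55, adjusted p = 0.00045). The loading chaperones PDIA3 and CALR fell from PROL to DIFF in DMD (log2 FC -0.75 for each). In WT the log2 FC was -0.26 for PDIA3 (adjusted p = 0.11) and -0.53 for CALR (adjusted p = 0.00018), and the interaction was called for neither (log2 -0.50, adjusted p = 0.026, and log2 -0.23, adjusted p = 0.41). The CALR call was lost with the first technical column alone (log2 FC -0.54, adjusted p = 0.39).

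In class II processing, the protease CTSL followed the WT pattern of IFI30: 412 ± 77.5 CPM in PROL and 961 ± 137 in DIFF for WT, and 405 ± 57.0 in PROL and 373 ± 38.7 in DIFF for DMD. Its DIFF log2 FC was -1.37 (SE 0.11, adjusted p = 5.1e-08), and the state effects differed by -1.34 (SE 0.18, adjusted p = 8.8e-06). The proteases CTSB and CTSH and the costimulatory receptor CD40 rose from PROL to DIFF in DMD (log2 FC 0.70, 0.84 and 0.66). In WT the log2 FC was 0.52 for CTSB and 0.47 for CTSH (adjusted p = 0.0018 and 0.0017), without overlap but under the FC limit, and 0.11 for CD40, and the interaction was called for none of the 3 (adjusted p = 0.41, 0.18 and 0.11). The CD40 call was lost when scaled by library size alone (log2 FC 0.59) and with the first technical column alone (adjusted p = 0.19).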

How the data were processed

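RNA of 16 samples (4 animals per genotype, each in PROL and DIFF) was measured. According to the authors, 3′ libraries with unique molecular identifiers were made from 25 ng RNA in technical duplicate, demultiplexed (bcl2fastq), inspected (FastQC, MultiQC), deduplicated (UMI-tools), aligned with STAR 2.7.10b to susScr3 and counted per gene by STAR. Annotation and strand setting are not given in the sources used here. The deposited values are raw counts per gene without normalization in 32 columns. All 124000 are even (0 odd), so counting floors take each as a molecule and cover counting error only. Their own testing was done with edgeR in R 4.1.2.

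Here the 2 technical columns per sample were added. Testing used edgeR 4.0.16 under R 4.3.3 (filterByExpr with minimum count 10 and minimum total 15, TMM, robust glmQLFit, glmQLFTest), on the 8 libraries of each comparison or all 16 for the interaction, and adjusted by Benjamini-Hochberg over all genes tested. The main fits had no term for the animal, so the state and interaction tests did not use the pairing of its 2 states. Called means adjusted p under 0.05 and absolute log2 fold change over 0.6. The SE is the absolute log2 fold change divided by the square root of F and restates the test. CPM are mean ± SD over 4 animals. Members were fixed by symbol; 87 were current symbols, 1 (IFN-KAPPA) an older one and 1 (IFITM2) neither. Members with 10 or more counts in at least 4 samples were to be named, with full statistics for those called; up to 8 called pathway genes per comparison with the smallest p are named, some in counts only. The members and lists were chosen with earlier results of these data known. The 2 states of 1 animal share a number by design, and after subtraction of the group means they correlated with r = 0.0998 to 0.172 over 8 pairs. Alternatives were DESeq2 1.42.0, median-of-ratios factors, library size alone, no RN18S, no or a stricter filter, a fit on 16 libraries, the first technical column, halved counts, the replicate block and leaving out each library. The scripts were tested on simulated data. The values of 2 members are not reported here, although the counts of members include them. Sequences were not used here, and the planned motif search was not run.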

Additional observations from a re-analysis of the deposited data

Results flagged for a closer look

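By the interaction term of the edgeR fit over 16 libraries, the state effect differed between the genotypes for 4 of 22 members tested. Of all 2030 genes tested, 23.5% were called, 10.6% more positive and 12.9% more negative. The differences on the log2 scale were -2.65 for IFIH1, -0.68 for IFI30, -1.71 for SLA-3 and -2.33 for ISG12(A), all more negative in DMD than in WT. For SLA-3 the level was lower in DIFF than in PROL in all 4 DMD animals and higher in all 4 WT animals.

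Of 88 sets of 4 libraries (22 members in 4 groups), 5 held a library far from the other 3, in 3 members. About 1 in 20 such sets is found by chance. IFITM3 stood out in WT PROL replicate 1 with 23.3 CPM (others 0 to 3.26), in WT DIFF replicate 1 with 24.8 CPM (others 0 to 2.95) and in DMD DIFF replicate 1 with 18.2 CPM (others 0). Both technical columns carried these counts. SLA-DMB was at 3.94 CPM in DMD PROL replicate 4, with the others at 11.6 to 12.6. STAT2 was at 7.00 CPM in DMD DIFF replicate 1, with the others at 5.69 to 5.83, that is 10 counts beside 8 or 10.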

How the results depend on the processing

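Of 35 calls of a member in a comparison, 22 were kept in every alternative that tested the gene, 13 were lost in at least 1, and none changed sign while called; 12 pairs not called were called in at least 1. The number of members called moved by over 1.5 times with the first technical column alone, to 3 in PROL (from 7), 7 in DIFF (from 12) and 5 in the WT states (from 8), with halved counts to 5 in the WT states and 2 in the DMD states (from 4), and with library size alone to 11 in PROL. The first column alone also ended the PROL calls of SLA-DMB, PSMB10 and TRAF6 (adjusted p = 0.11, 0.085 and 0.21) and the DIFF call of OAS2 (adjusted p = 0.13). Fewer members were tested with the first column (11 of 17 in PROL, 14 of 21 in DIFF and in the WT states) and with halved counts. Leaving out 1 library gave 5 to 8 members in PROL, 8 to 10 in DIFF, 6 to 10 in the WT states, 4 to 6 in the DMD states and 3 to 5 in the interaction. With the replicate block the counts were 8, 11, 9, 5 and 4 in the same order. Except for library size alone, calls over all genes in these runs are not given here. The counts thus do not show whether members lost more calls than other genes. In the state comparisons and the interaction the block is the animal. In the state comparisons the block added OAS2 in WT and IFIH1 in DMD. Between the genotypes it is only a number; deviations of same-numbered animals correlated by -0.027 to 0.099 in PROL and -0.0087 to 0.092 in DIFF. With library size alone, calls over all genes were 122 higher and 264 lower in PROL, 387 and 267 in DIFF, 194 and 563 in the WT states, 280 and 266 in the DMD states, and 387 and 134 in the interaction, beside 160 and 189, 308 and 335, 343 and 275, 302 and 234, and 215 and 262 with TMM. Without a filter on low counts, B2M and SLA-DQA1 were also called lower in DMD DIFF (adjusted p = 0.043 and 0.040) and SLA-DQA1 higher in WT DIFF (adjusted p = 0.044), at 12 counts or fewer per group. Of 38 calls of the named pathway genes, 27 were kept throughout. The 67 members short of the expression limit were not tested in the main fits, and the reason for their low counts was not tested.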
